A study of Mus musculus with 18 samples.

Results

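The astrocyte fraction of mouse frontal cortex was set against the neuron fraction of the same tissue in 12 of the 18 libraries of the series. The 6 astrocyte libraries came from cells captured with an antibody to HepaCAM and the 6 neuron libraries from cells captured with an antibody to Thy1. Libraries were chosen by their capture label alone, over all 3 treatments, and no measured value entered that choice. Each astrocyte library was paired with the neuron library of the same treatment and replicate number, which came from the same pool of cortices of 5 animals, so that there were 6 pools. The genotype of all animals, controls included, was B6;D2-Tg(S100B-EGFP)1Wjt/J, with an EGFP reporter driven by S100B sequences. Pools 1 and 2 of each treatment received clozapine at 10 mg/kg, risperidone at 1 mg/kg or vehicle by intraperitoneal injection once a day for 14 days, between postnatal days 60 and 74, and tissue was taken on day 75. The replicate number is also the batch given by the labels, so each batch held 3 pools, 1 of each treatment. The labels give both sexes in 1 place and adult males in another.

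Astrocytes take up glutamate and potassium released by active neurons, are joined to each other by connexin gap junctions, and release lipoproteins and matrix proteins that act on synapses. Neurons carry the voltage-gated channels, the vesicle release machinery and the postsynaptic densities. HepaCAM is an adhesion molecule of astrocyte membranes, and Thy1 is a surface glycoprotein of mature projection neurons. In immunopanning a cell suspension passes over a series of antibody-coated dishes. Here endothelial cells were removed first, CD45-positive microglia were captured next, oligodendrocyte lineage cells were removed after them, and neurons and then astrocytes were kept from what remained.

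Astrocyte libraries held 4714468 to 10651230 assigned reads and neuron libraries 6520597 to 13391163. Levels below are CPM, assigned reads scaled to library size with TMM factors, and differences are log2 values, astrocyte minus neuron, with the standard error of the paired fit. In this bulk RNA, fewer cells of a type and less RNA per cell cannot be told apart. The pool risperidone replicate 1 stood apart from the other pools. Over all 23239 genes tested, the correlation of its differences with those of the other pools ran only from -0.19 to 0.13 (genes within libraries, given as a description), against up to 0.81 between the others, of which vehicle replicate 1 reached at most 0.36 with any pool, although among the 4354 genes with at least 50 CPM it was 0.56 to 0.67. Transcripts of the 1135 olfactory receptor genes, a family of odorant sensors of the nose, also varied between libraries. Their summed level was 880 and 1190 CPM in the astrocyte libraries of the 2 clozapine pools, 484 and 2220 CPM in those of the risperidone pools and 1120 and 2290 CPM in those of the vehicle pools. In the neuron libraries it was 206 and 106 CPM, 1030 and 163 CPM, and 647 and 211 CPM in the same order of pools. The astrocyte library thus held more of these reads in 5 of 6 pools and less in risperidone replicate 1. Only 142 of the 1135 receptor genes had enough counts to be tested, which favours genes with reads in the richer fraction. Of these 142, 16 were called higher and 0 lower (edgeR), against 9.45% and 12.7% of all genes tested. Their median difference of 2.21 partly restates that filter. Over all 1135 genes the mean rate was 0.373 CPM per kb of exon in astrocyte libraries and 0.107 in neuron libraries. The first principal component of the 12 libraries, 51.9% of the variance, set the astrocyte library below the neuron library in the same 5 pools and above it in risperidone replicate 1 (4.9 against -27.8). The part of this signal in the differences below was not tested beyond the fits named.

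The capture antigens separated the fractions in the direction of their labels. Hepacam (chromosome 9, 37278647 to 37297871, plus strand, GRCm39) stood at 207, 189, 274, 210, 212 and 199 CPM in the astrocyte libraries of clozapine 1 and 2, risperidone 1 and 2, and vehicle 1 and 2, against 92.6, 75.5, 74.4, 124, 81.6 and 110 CPM in the neuron libraries of the same pools. The groups did not overlap, and the difference was 1.23 (SE 0.20, higher in 6 of 6 pools, edgeR adjusted p = 0.00276). Thy1 (chromosome 9, 43954681 to 43959876, plus strand) stood at 80.4, 88.7, 76.1, 98.9, 53.6 and 80 CPM in astrocyte libraries and at 146, 213, 157, 334, 108 and 280 CPM in neuron libraries, in the same order. These groups did not overlap either, and the difference was -1.29 (SE 0.20, lower in 6 of 6 pools, edgeR adjusted p = 0.00242). In linear terms Hepacam was 2.35-fold higher in the astrocyte fraction and Thy1 2.45-fold higher in the neuron fraction, so each fraction also held transcripts of the other antigen. Ptprc, which encodes CD45 and marks the cells taken out earlier, was 6.39 to 74.6 CPM in astrocyte libraries (median 10.1) and 2.1 to 59.8 CPM in neuron libraries (median 6.33), with overlapping groups and a difference of 1.04 (SE 0.26, 5 of 6 pools, edgeR adjusted p = 0.015). S100b, the gene whose sequences drive the reporter, was 132 to 364 CPM in astrocyte libraries and 92.1 to 192 CPM in neuron libraries, and its difference of 0.68 (SE 0.25, 5 of 6 pools) did not pass the test (edgeR adjusted p = 0.0712).

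**Figure D1:**
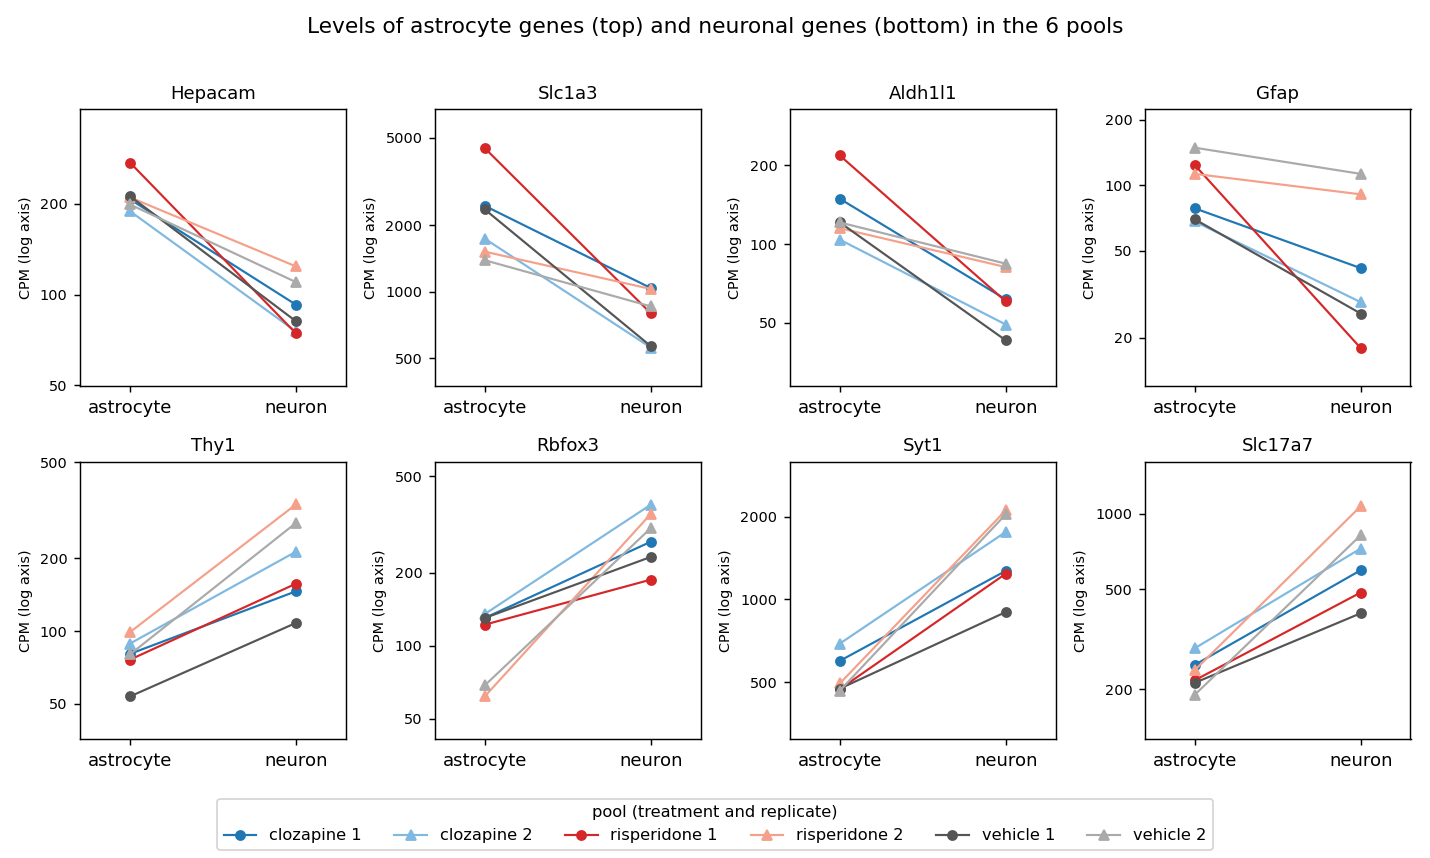
Levels in CPM (log axis) of 4 astrocyte genes (top) and 4 neuronal genes (bottom), with the astrocyte library of each pool on the left joined to its neuron library on the right; circles are replicate 1 and triangles replicate 2 of each treatment. Every line falls from astrocyte to neuron in the top panels and climbs in the bottom panels, and Hepacam and Thy1 do not overlap between fractions (lowest astrocyte Hepacam 189 CPM, highest neuron 124 CPM).

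Across the table, 2197 of 23239 genes were called higher in the astrocyte fraction (9.45% of genes tested) and 2953 lower (12.7%), at an edgeR adjusted p under 0.05. Of these, 1638 genes were higher in 6 of 6 pools (7.05% of genes tested) and 2473 were lower in 6 of 6 (10.6%), and these are the genes that separated the fractions. Without scaling factors, the median difference of all genes moved to 0.44, against 0.09 with TMM, and the split of calls became 3574 higher and 1916 lower, so differences are read against the median of 0.09. Among the separating genes, protein-coding genes made up 87.2% of those higher and 88.7% of those lower, against 70.6% of all genes tested. The genes lower in astrocytes were more abundant, with a median of 55.2 CPM over the 12 libraries, against 13.3 CPM for those higher and 9.6 CPM for all genes tested. Differences of at least 2 in size were found for 187 of the higher genes and for 2 of the lower genes. In 942 genes (4.05% of those tested) every astrocyte library was above every neuron library, and in 1490 (6.41%) every one was below. Another 1021 called genes kept their sign in 5 of 6 pools, and the exception was risperidone replicate 1 for 649 of them, vehicle replicate 1 for 177, clozapine replicate 1 for 87, vehicle replicate 2 for 65, risperidone replicate 2 for 36 and clozapine replicate 2 for 7. Calls over both directions came to 9259 without risperidone replicate 1, and to 3320, 2653, 3167 and 3103 without clozapine replicate 1, clozapine replicate 2, risperidone replicate 2 and vehicle replicate 2. Batch 2 alone gave 15441 calls and batch 1 alone 1361.

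**Figure D2:**
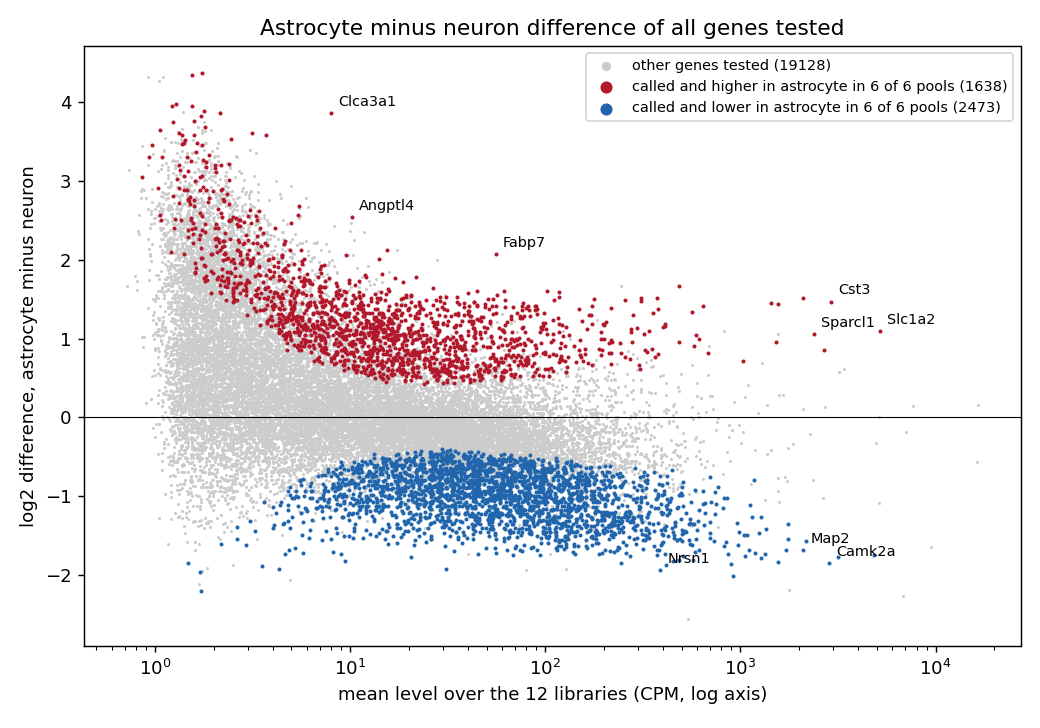
The log2 difference, astrocyte minus neuron, of each of the 23239 genes tested against its mean level over the 12 libraries (CPM, log axis). Red points are the 1638 genes called and higher in astrocyte in 6 of 6 pools, blue points the 2473 called and lower in 6 of 6, and grey points all others; large positive differences lie among genes of low level, while the abundant genes lower in astrocyte reach -2.01 (Hpcal4).

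The 5 genes named for abundance among those higher in the astrocyte fraction encode glutamate transporters and secreted proteins. Slc1a2, the main glutamate transporter of forebrain astrocytes, was 5450 to 8500 CPM in astrocyte libraries (median 6645) and 2050 to 5660 CPM in neuron libraries (median 2950), a difference of 1.10 (SE 0.33, 6 of 6 pools, edgeR adjusted p = 0.0337) with overlapping groups. Slc1a3, the other astrocytic glutamate transporter, was 1390 to 4470 CPM in astrocyte libraries and 559 to 1040 CPM in neuron libraries, without overlap, a difference of 1.44 (SE 0.32, edgeR adjusted p = 0.00843). Apoe, the main apolipoprotein of brain, was 2260 to 4920 CPM in astrocyte libraries and 744 to 1390 CPM in neuron libraries, a difference of 1.51 (SE 0.32, edgeR adjusted p = 0.00696), and these groups did not overlap. Cst3, the protease inhibitor cystatin C, and Sparcl1, the matrix protein hevin, differed by 1.47 and 1.06 in the same direction, with overlapping groups. All 5 genes were higher in 6 of 6 pools. In the batch 2 pools of risperidone and vehicle the differences of Slc1a2, Slc1a3, Apoe, Cst3 and Sparcl1 were at their smallest, with values down to 0.23 for Slc1a2 and 0.16 for Sparcl1, both in risperidone replicate 2.

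The largest positive differences belonged to genes of lower level. Fabp7, the brain fatty acid binding protein of radial glia and astrocytes, was 38.0 to 142 CPM in astrocyte libraries (median 89.6) and 11.5 to 26.4 CPM in neuron libraries (median 20.7), a 4.20-fold difference without overlap (2.07, SE 0.28, 6 of 6 pools, edgeR adjusted p = 0.00187). Angptl4, a secreted inhibitor of lipoprotein lipase, was 6.74 to 30.2 CPM in astrocyte libraries and 1.19 to 4.54 CPM in neuron libraries, a difference of 2.54 (SE 0.35, 6 of 6 pools, edgeR adjusted p = 0.00195). Clca3a1, a chloride channel accessory gene, had the largest difference of the separating genes with a known symbol and a mean of at least 5 CPM. It differed by 3.86 (SE 0.48, edgeR adjusted p = 0.00161), with 1.44 to 36.7 CPM in astrocyte libraries and 0.314 to 1.61 CPM in neuron libraries. Its lowest pool difference was 0.47 in risperidone replicate 1, and reads of its close paralogs may be shared with it. Nkain4, which encodes a protein that binds the sodium pump, differed by 2.01 and Loxl1, a collagen and elastin crosslinking enzyme, by 1.88, and neither overlapped between fractions. Trip6, an adhesion adaptor, differed by 1.95, Crybg1 by 2.06 and Cyp4f17 by 1.98, also without overlap. Other genes named by the same rule are known mainly from other tissues, namely the flagellar gene Spef2 (2.01), the testis sodium pump Atp1a4 (1.93), the ciliary gene Ttc21a (1.92) and the muscle calcium channel Cacna1s (1.88). In astrocyte libraries these stood at 2.46, 8.28, 5.33 and 4.39 times the mean level that olfactory receptor genes had per exon length, against 196 times for Fabp7 and 729 times for Slc1a3. In neuron libraries the ratios were much the same, at 2.28, 8.39, 5.88 and 4.63, against 149 and 882. Trip6, Cyp4f17 and Loxl1 stood at 9.60, 7.41 and 6.89 times it in astrocyte and 10.1, 7.07 and 6.78 times in neuron libraries. The part of that signal in these differences was not tested. In astrocyte libraries, 40 of the 1638 separating higher genes (2.44%) and 6 of the 2473 lower ones lay under 2 times that level, against 6.79% of all genes tested.

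The genes named among those lower in the astrocyte fraction, by size of difference or by abundance, had differences down to -2.01. Hpcal4, a neuronal calcium sensor, was 136 to 683 CPM in astrocyte libraries (median 419) and 553 to 1940 CPM in neuron libraries (median 1560), a difference of -2.01 (SE 0.41, lower in 6 of 6 pools, edgeR adjusted p = 0.00638). Nrsn1, which encodes the vesicle membrane protein neurensin, was 48.6 to 290 CPM in astrocyte libraries and 352 to 825 CPM in neuron libraries, without overlap (-1.94, SE 0.37, edgeR adjusted p = 0.00473). Kcnab2, a potassium channel beta subunit, was 77.6 to 252 CPM in astrocyte libraries and 333 to 945 CPM in neuron libraries, also without overlap (-1.87, SE 0.39, edgeR adjusted p = 0.00663). Camk2a, the alpha subunit of the calcium and calmodulin dependent kinase of excitatory synapses, differed by -1.85, its inhibitor gene Camk2n1 by -1.69, and Nrgn, the calmodulin buffer neurogranin, by -1.79. The dendritic gene Ddn, dendrin, differed by -1.81. Among the genes named for abundance, the microtubule-associated Map2, Map1a and Map1b differed by -1.69, -1.57 and -1.54. Trnp1 (-1.93), Fam81a (-1.85), Fbxl16 (-1.83) and Ctxn2 (-1.82) completed the genes named, together with Cdr1 (-1.77), for which reads of its antisense partner cannot be told apart. All of these were lower in 6 of 6 pools, and for each of these, and for the release genes named below, the difference nearest 0 lay in risperidone replicate 1.

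The promoters of 4 genes that separated the fractions are shown, 2 from each direction, picked after their values were seen. They are RefSeq windows of 250 bases before to 50 bases after the annotated start on GRCm38.p6, printed 5′ to 3′ on the gene's strand, with each CG dinucleotide in capitals. Slc1a3 lies at chr15:8710758-8711057 on the minus strand, Fabp7 at chr10:57784673-57784972 on the plus strand, Nrsn1 at chr13:25269947-25270246 on the minus strand and Map2 at chr1:66175079-66175378 on the plus strand.
Slc1a3: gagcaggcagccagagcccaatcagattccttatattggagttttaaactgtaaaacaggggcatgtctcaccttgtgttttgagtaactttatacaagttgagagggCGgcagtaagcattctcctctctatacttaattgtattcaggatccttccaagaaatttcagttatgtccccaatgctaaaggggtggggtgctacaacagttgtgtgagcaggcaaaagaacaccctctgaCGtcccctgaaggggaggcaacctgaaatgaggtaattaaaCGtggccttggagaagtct
Fabp7: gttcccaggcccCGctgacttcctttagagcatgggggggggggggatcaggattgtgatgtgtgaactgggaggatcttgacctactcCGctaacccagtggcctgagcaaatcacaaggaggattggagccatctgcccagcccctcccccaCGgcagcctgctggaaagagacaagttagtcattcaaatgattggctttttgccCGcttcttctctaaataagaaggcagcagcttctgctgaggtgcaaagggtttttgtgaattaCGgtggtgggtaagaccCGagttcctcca
Nrsn1: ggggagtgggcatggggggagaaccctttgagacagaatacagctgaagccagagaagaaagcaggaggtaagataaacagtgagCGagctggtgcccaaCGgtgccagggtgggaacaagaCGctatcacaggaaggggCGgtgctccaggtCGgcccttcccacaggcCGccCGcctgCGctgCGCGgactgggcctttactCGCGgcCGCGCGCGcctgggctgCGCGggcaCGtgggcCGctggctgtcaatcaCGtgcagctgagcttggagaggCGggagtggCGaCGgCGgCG
Map2: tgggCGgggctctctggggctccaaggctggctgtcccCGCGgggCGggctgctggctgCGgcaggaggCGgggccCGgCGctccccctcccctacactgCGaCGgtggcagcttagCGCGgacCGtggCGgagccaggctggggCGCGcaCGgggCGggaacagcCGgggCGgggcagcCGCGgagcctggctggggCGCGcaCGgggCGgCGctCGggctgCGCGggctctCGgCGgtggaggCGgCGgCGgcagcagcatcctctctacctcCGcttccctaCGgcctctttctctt
The letters CG (the same on either strand) occur 3 times in the Slc1a3 window and 6 times in the Fabp7 window, genes that were higher in astrocytes. They occur 26 times in the Nrsn1 window and 37 times in the Map2 window, genes that were lower. Of the 27025 promoters in the RefSeq table, 94.2% hold at least 1 CG and the median number is 7. As few as the Slc1a3 number or fewer were found in 31.9% of them, and as many as the Map2 number or more in 5.37%. Whether CG content differs between the separating genes at large was not examined, since the table holds a promoter for only 73.1% of the higher and 70.1% of the lower genes, under the 80% needed.

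All 20 tested genes of the astrocyte channel and transporter list were called higher and 0 lower, against 9.45% and 12.7% of all genes, with a median difference of 1.34 (0.09 over all genes). In fits over all 6 pools, the calls and medians of the lists that follow are read against these values over all genes. Gja1, the main connexin of astrocyte gap junctions, was 614 to 997 CPM in astrocyte libraries (median 704) and 168 to 312 CPM in neuron libraries (median 234), without overlap (1.67, SE 0.24, 6 of 6 pools, edgeR adjusted p = 0.00215). Slc14a1, a urea transporter, differed by 1.81 and the inward rectifier Kcnj16 by 1.46, each without overlap in 6 of 6 pools. Of 30 astrocyte identity genes, 27 were called higher and 0 lower (median 1.31), led after Fabp7 by Entpd2, an ectonucleotidase, at 1.73, F3, tissue factor, at 1.56, and Agt, angiotensinogen, at 1.56. The 3 identity genes not called were S100b, Aldoc (1.06, SE 0.37, 4 of 6 pools) and Ppp1r3c (0.92, SE 0.31, 4 of 6 pools). The defining markers Gfap, 68.3 to 149 CPM in astrocyte and 17.9 to 113 CPM in neuron libraries, and Aldh1l1, 104 to 218 CPM and 42.9 to 84.2 CPM in the same order, were present in both fractions.

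Of 20 secreted and synapse-related astrocyte genes, 16 were called higher and 1 lower, with a median of 1.2. Thbs4, a thrombospondin, differed by 1.83, Lcat, the enzyme that esterifies cholesterol in lipoproteins, by 1.55, Sparc, a matrix glycoprotein, by 1.49, and Bcan, the proteoglycan brevican, by 1.38. Bdnf, a growth factor made largely by neurons, was the exception, at -0.77 (SE 0.18, 5 of 6 pools, edgeR adjusted p = 0.0108), and is named because its count was 1. Receptors and transcription factors of the Notch, Hedgehog and FGF pathways were called higher for 16 of 20 genes and lower for 0, with a median of 1.08. Notch2, a receptor, was 86.5 to 151 CPM in astrocyte libraries and 29 to 75.5 CPM in neuron libraries (1.42, SE 0.17, edgeR adjusted p = 0.00154), and Fgfr3 177 to 399 CPM and 53.0 to 106 CPM (1.42, SE 0.20, edgeR adjusted p = 0.00193). Gli2, an effector of Hedgehog signalling, and Hey2, a Notch target, differed by 1.54 and 1.48, and none of these 4 genes overlapped between fractions. The median of this list lay between 0.84 and 1.40 in the single pools, a narrower span than the 0.56 to 2.03 of the channel and transporter list. Of 19 tested reactive astrocyte genes, 9 were called higher and 1 lower (median 1.08), among them the guanylate binding protein Gbp2 (2.34), the chemokine Cxcl10 (2.12), the cytokine receptor Osmr (1.92, 5 of 6 pools) and the complement gene C4b (1.47), whose reads may be shared with a near copy. The 1 lower gene was S100a10, an annexin partner, at -0.70 (SE 0.22, 6 of 6 pools).

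Genes of glutamate and glutamine handling went in both directions. Of 18 genes, 5 were called higher and 5 lower, with a median of 0.34. Among all genes tested, 9.45% were called higher and 12.7% lower, with a median of 0.09, and the lists of this paragraph are read against these values. Higher in the astrocyte fraction were the glutamine exporter Slc38a3 (116 to 219 CPM in astrocyte libraries, 43.9 to 68.6 CPM in neuron libraries, 1.32, SE 0.19, edgeR adjusted p = 0.00207) and Prodh, proline dehydrogenase (1.29). Among the lower genes was Asns, asparagine synthetase (-1.29). None of these 3 overlapped between fractions. In fatty acid oxidation 15 of 20 genes were called higher and 0 lower (median 0.71), led by Cpt1a, the carnitine transferase that admits fatty acids to mitochondria, at 48.9 to 75.6 CPM in astrocyte libraries and 12.1 to 25 CPM in neuron libraries (1.58, SE 0.17, 6 of 6 pools, edgeR adjusted p = 0.00154). The carnitine carrier Slc25a20, the thiolase Acaa2 and the dehydrogenase Acads followed at 1.22, 1.2 and 1.15, with Acaa2 and Acads higher in 5 of 6 pools. Sterol synthesis genes were called higher in 8 of 21 and lower in 0 (median 0.27), with Msmo1 (0.82), Dhcr7 (0.79), Nsdhl (0.73) and the regulator Insig1 (0.69) at the top. Glycolysis and its carriers gave 3 higher and 5 lower of 22 genes (median -0.51), and the size of that median varied with the batch. In batch 2 alone it was -1.03 (17 lower), where all genes had a median of 0.35 and 6348 of 28173 were called lower. In batch 1 alone it was 0.08 (2 higher, 3 lower), close to the median of 0.04 over all genes, of which 521 of 22567 were called lower. The neuronal enolase Eno2 differed by -1.49, the neuronal glucose transporter Slc2a3 by -1.11 and the monocarboxylate carrier Slc16a7 by -1.03, all lower in 6 of 6 pools, while the hexokinase Hk2 differed by 1.08 in 5 of 6.

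Neuronal lists were lower almost throughout. All 20 pan-neuronal genes were called lower (median -1.45), with Nefl, the light neurofilament, at 72.0 to 238 CPM in astrocyte libraries (median 213) and 314 to 721 CPM in neuron libraries (median 632), without overlap (-1.75, SE 0.35, 6 of 6 pools, edgeR adjusted p = 0.00587). Syn1, the synaptic vesicle phosphoprotein synapsin, and the intermediate filament Ina differed by -1.73 and -1.63, also without overlap. Of 22 cortical glutamatergic genes, 18 were called lower and 0 higher (median -1.42), including the deep-layer transcription factor Tbr1 at 24.5 to 57.0 CPM in astrocyte libraries and 81.1 to 194 CPM in neuron libraries (-1.66, SE 0.26, edgeR adjusted p = 0.00256) and Neurod6 (-1.54). Of 24 interneuron genes, 16 were called lower and 2 higher (median -0.89). The peptides Vip and Sst differed by -1.51 and -1.46, the GABA-synthesising enzyme Gad2 by -1.26 and the calcium buffer Calb1 by -1.23, each lower in 6 of 6 pools with overlapping groups. Among those called higher was Sox6, a transcription factor (0.47), named because of their number.

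Of 25 genes of presynaptic release, 24 were called lower and 0 higher (median -1.46). Rims1, an active zone scaffold, was 97 to 881 CPM in astrocyte libraries and 871 to 2030 CPM in neuron libraries (-1.86, SE 0.45, edgeR adjusted p = 0.013), and its difference in risperidone replicate 1 rounded to 0.00. The complexins Cplx1 and Cplx2, which clamp vesicle fusion, both differed by -1.76. Of 23 postsynaptic scaffold genes, 21 were called lower and 0 higher (median -1.29), with Dlgap3 (-1.70), Shank1 (-1.68), Cnksr2 (-1.67) and Shank2 (-1.63) leading. All 23 voltage-gated channel genes were called lower (median -1.03), among them the sodium channel beta subunit Scn2b (-1.39), without overlap.

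Receptor subunits divided by gene. Of 22 glutamate receptor genes, 16 were called lower and 2 higher (median -0.87). Grin2c, an NMDA receptor subunit, was 74.3 to 179 CPM in astrocyte libraries (median 116) and 24.3 to 62.1 CPM in neuron libraries (median 48.6), higher in 6 of 6 pools without overlap (1.36, SE 0.18, edgeR adjusted p = 0.00187). Its relatives Grin2b and Grin2a went the other way, with 362 to 641 CPM in astrocyte libraries and 964 to 2190 CPM in neuron libraries for Grin2b (-1.34, SE 0.30, edgeR adjusted p = 0.0092), and a difference of -1.23 for Grin2a. Grm3, a metabotropic receptor, was the other higher gene (0.69, SE 0.22, 6 of 6 pools). Of 14 GABA receptor genes, 10 were called lower and 1 higher (median -0.98). Gabrg1 was the higher gene, at 37.1 to 79.2 CPM in astrocyte libraries and 16.0 to 30.4 CPM in neuron libraries (1.22, SE 0.20, 6 of 6 pools, edgeR adjusted p = 0.00276), whereas the subunits Gabrb2 (-1.46) and Gabra3 (-1.33) were lower without overlap. Grm3 and Gabrg1 were named after their values were seen.

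Among receptors for monoamines and acetylcholine, the class that clozapine and risperidone bind, 14 of 30 tested genes were called lower and 0 higher (median -0.70). Htr2a, a serotonin receptor that both drugs block, was 5.35 to 12.8 CPM in astrocyte libraries (median 9.92) and 15.6 to 34.8 CPM in neuron libraries (median 25.6), without overlap (-1.36, SE 0.21, lower in 6 of 6 pools, edgeR adjusted p = 0.00237). The muscarinic receptor Chrm1 was 49.1 to 67.5 CPM in astrocyte libraries and 107 to 274 CPM in neuron libraries (-1.42, SE 0.23, edgeR adjusted p = 0.00273). The histamine receptor Hrh3 and the muscarinic receptor Chrm2 differed by -1.34 and -1.27. The dopamine receptors Drd1 and Drd2, given as the drugs' known targets, differed by -1.13 (SE 0.24) and -1.10 (SE 0.25), lower in 6 of 6 pools. Their levels were low, at 6.79 to 9.46 CPM in astrocyte libraries and 10.5 to 35 CPM in neuron libraries for Drd1, and 1.75 to 8.36 CPM and 6.39 to 21.5 CPM in the same order for Drd2.

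**Figure D3:**
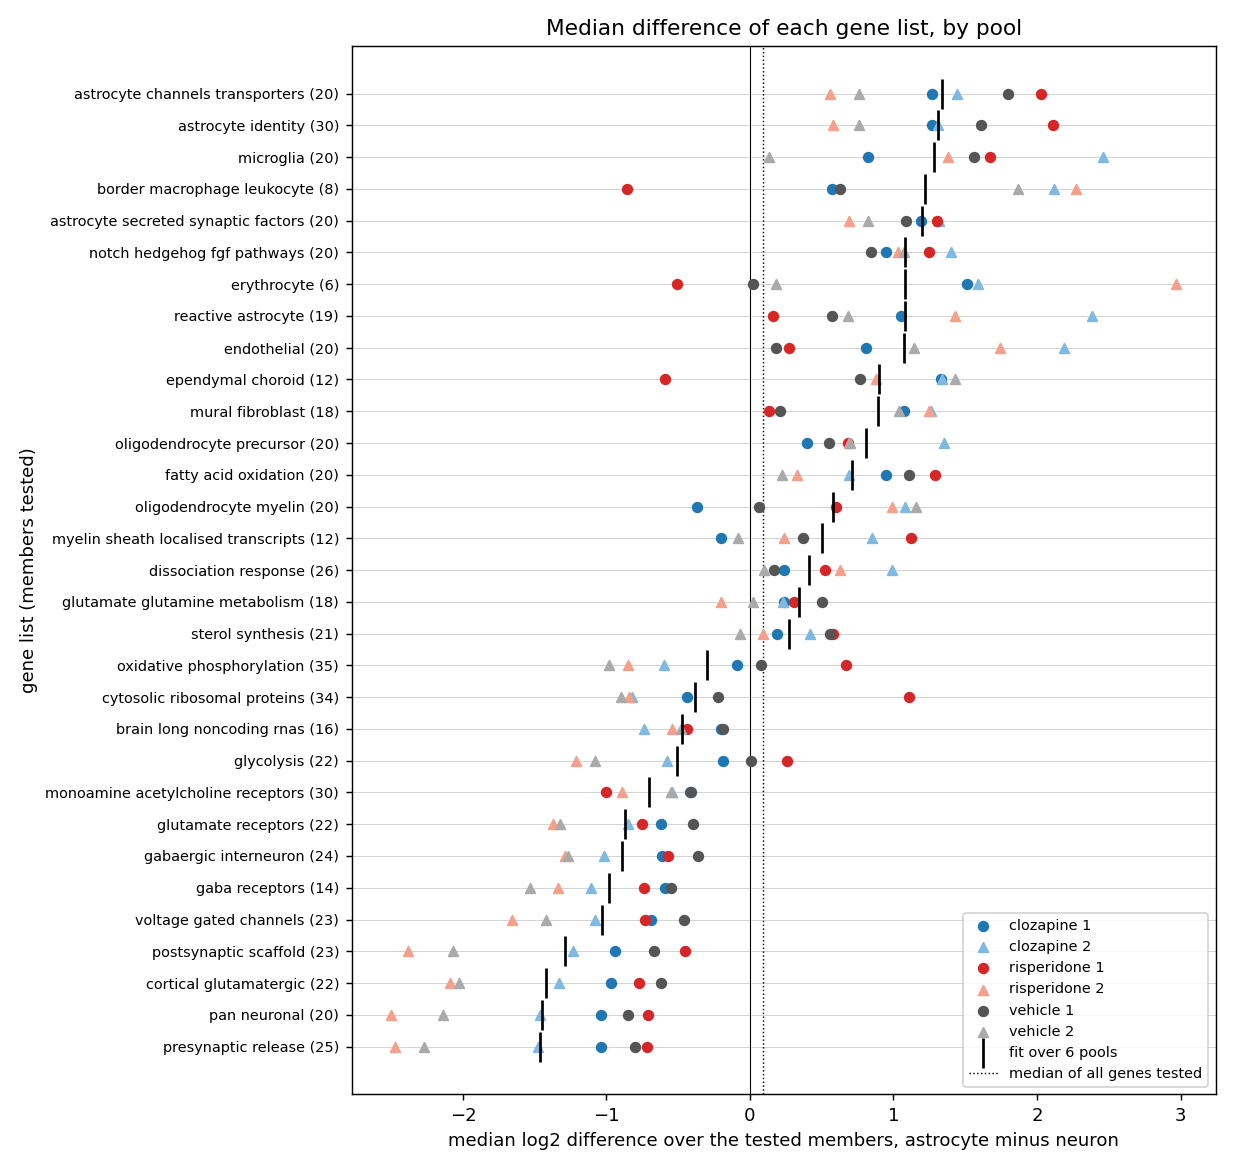
Median log2 difference, astrocyte minus neuron, over the tested members of each of 31 gene lists, in each pool (coloured points; circles replicate 1, triangles replicate 2) and in the fit over 6 pools (black bars); the dotted line is the median of all genes tested, 0.09. Neuronal lists lie left of 0 in every pool, with replicate 2 pools farther left than replicate 1 pools, and the ribosomal protein list is at 1.11 in risperidone replicate 1 and between -0.90 and -0.22 elsewhere.

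The size of the difference depended on the batch. Over all genes, batch 2 alone called 9093 higher and 6348 lower of 28173 tested, with a median of 0.35. Batch 1 alone called 840 higher and 521 lower of 22567, with a median of 0.04. The medians and calls of the lists in each batch are read against these values, and calls are not comparable between the batches without them. The pan-neuronal median was -2.07 in a fit of batch 2 alone, with 20 of 20 genes called lower, and -0.84 in batch 1 alone, with 13 called. For presynaptic release it was -2.19 with 25 of 25 called in batch 2 and -0.86 with 10 in batch 1, and for postsynaptic scaffolds -2.0 with 23 of 23 in batch 2 and -0.70 with 5 in batch 1. The channel and transporter list ran the other way, with medians of 0.85 in batch 2 and 1.74 in batch 1, as did the identity list, with 0.83 in batch 2 and 1.72 in batch 1. The reactive astrocyte list was larger in batch 2, at 1.35 with 15 called higher, than in batch 1, at 0.55 with 4, and the Notch, Hedgehog and FGF list stood at 1.11 in batch 2 and 1.13 in batch 1. The interaction of fraction with batch was called for 2338 genes (10.1% of those tested, edgeR adjusted p under 0.05), 859 of them with a more positive difference in batch 2. Fat2, a giant cadherin, differed by 3.05, 4.83 and 4.09 in the batch 2 pools of clozapine, risperidone and vehicle, against 0.63, -0.88 and -0.20 in those of batch 1, an interaction of 4.38 (SE 0.57, edgeR adjusted p = 0.0125). Col2a1, the cartilage collagen, had an interaction of 4.17, Otog, an inner ear matrix gene, of 3.80, Cdh23, a hair cell cadherin, of 2.46, and Myh6, the cardiac myosin, of 2.35, each with an edgeR adjusted p of 0.0125. In astrocyte libraries these 5 genes stood at 2.32 to 7.45 times the level that olfactory receptor genes had per exon length, and the part of that signal was not tested. The number of genes with this interaction was 3871 without clozapine replicate 1, 34 without vehicle replicate 2, 102 without risperidone replicate 1, and 0 without vehicle replicate 1 or risperidone replicate 2.

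Whether the drugs altered the difference was asked with interaction terms. No gene (0% of those tested) had a called interaction with both drug terms together, with clozapine or with risperidone in edgeR, with 97, 123 and 162 genes at an unadjusted p under 0.05, and DESeq2's likelihood ratio test of both terms called 2. Vmn1r55, a vomeronasal receptor gene, came nearest, with differences of 2.44 and 1.53 in clozapine pools and 3.30 and 2.06 in risperidone pools, against -2.88 and -2.49 in vehicle pools (edgeR adjusted p = 0.226 for both terms). Genes are named here by a small p of an interaction, so their sizes restate that choice. Cxcl10 stood at 24.3 and 14.9 CPM in clozapine astrocyte libraries, and at 1.52 and 0.73 CPM in their neuron libraries. In vehicle replicate 1 it stood at 8.45 CPM in astrocyte and 1.32 CPM in neuron, and in vehicle replicate 2 at 53.5 and 39.3 CPM. Cxcl10 differed by 3.80 and 3.96 in clozapine pools against 2.48 and 0.44 in vehicle pools, an interaction of 2.85 (SE 0.72, edgeR adjusted p = 1), and Oasl1, an interferon-induced gene, by 2.46 and 3.47 against 0.71 and 0.65 (2.82, SE 0.71, edgeR adjusted p = 1). For risperidone, Fcer1g, a signalling chain of myeloid Fc receptors, differed by 2.70 and 1.61 against -0.23 and 0.30 in vehicle pools (2.12, SE 0.63, edgeR adjusted p = 1). With 2 pools per treatment and 3 residual degrees of freedom, an absence of calls does not show that the difference was the same under each treatment, and 5 and 57 genes were called for both terms without risperidone replicate 1 or risperidone replicate 2.

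Genes of other cell types were present in both fractions, and those called were higher in the astrocyte fraction, although many members did not pass the test. The lists below stand against 9.45% called higher and 12.7% called lower among all genes tested, with a median of 0.09. Of 20 microglial genes, 17 were called higher and 0 lower (median 1.28), and the list summed to 576 to 1740 CPM in astrocyte libraries (median 1010) and 145 to 1720 CPM in neuron libraries (median 419). Gpr34 (1.82), Ctss (1.67, 5 of 6 pools), Tyrobp (1.55) and P2ry12 (1.53) led it, all with overlapping groups. Oligodendrocyte precursor genes were called higher in 10 of 20 (median 0.81), including Ptprz1, which astrocytes also express, at 814 to 1160 CPM in astrocyte libraries and 256 to 488 CPM in neuron libraries (1.41, SE 0.25, edgeR adjusted p = 0.00346), and the receptor Pdgfra (1.37). Myelin genes were called higher in 6 of 20 (median 0.58), with Trf, transferrin, at 0.90, the connexin Gjc3 and the regulator Myrf at 0.78 each and Enpp6 at 0.76. Mbp, a defining myelin gene, did not pass the test (0.15, SE 0.39, 3 of 6 pools), and it stood at 12400, 23900 and 13600 CPM in the replicate 1 astrocyte libraries of clozapine, risperidone and vehicle, against 16100, 7480 and 7010 CPM in their neuron libraries. In the replicate 2 pools it stood at 1880, 1520 and 1440 CPM in astrocyte libraries, against 1850, 2210 and 2380 CPM in neuron libraries, so both fractions held less of it there. No member of any of the 31 lists was at 0 in all libraries of a fraction. The part of these cells in the differences above was not tested, and leaving the 2 oligodendrocyte lists out of the scaling and the test gave 5131 genes called.

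**Figure D4:**
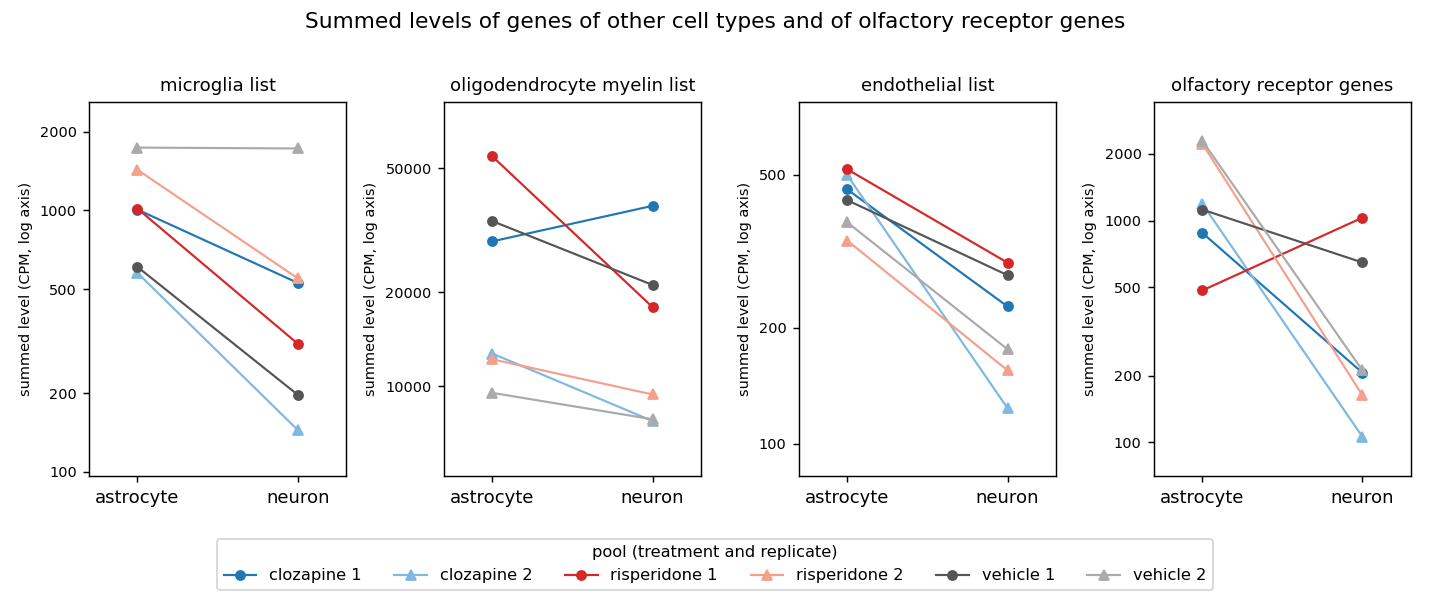
Summed levels in CPM (log axis) of the microglial, oligodendrocyte myelin and endothelial lists and of 1135 olfactory receptor genes, with the astrocyte library of each pool on the left joined to its neuron library on the right; circles are replicate 1 and triangles replicate 2. Myelin transcripts separate by replicate in both fractions, and the olfactory receptor line climbs only in risperidone replicate 1 (484 CPM in astrocyte, 1030 CPM in neuron).

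Without risperidone replicate 1, more genes were called higher in the vascular lists and in several others. Higher calls over all genes also rose without that pool, from 2197 of 23239 tested to 4903 of 23366. The counts of the lists are read against that general rise. Their medians moved by less than the spread between pools, which leaving out 1 of 6 pools could hardly exceed. Of 20 endothelial genes, 6 were called higher and 0 lower (median 1.07), and 12 were called higher without risperidone replicate 1. Slco1c1, an organic anion transporter that astrocytes also express, differed by 1.53, Cdh5 by 1.51, Vwf by 1.49 in 5 of 6 pools and Kdr by 1.28. Of 18 tested mural and fibroblast genes, 5 were called higher (7 without the pool, median 0.89 with all pools), with Vtn at 1.78, Abcc9 at 1.29 and Pdgfrb at 1.29. Ependymal and choroid genes gave 4 of 12 (8 without the pool), led by the ciliary genes Ccdc153 (2.50), Ak7 (2.24) and Hydin (1.73). Ccdc153 was near the floor, at 1.31 to 3.94 CPM in astrocyte and 0 to 0.879 CPM in neuron libraries, and Ak7 had a neuron median of 1.06 CPM. Border macrophage and leukocyte genes gave 2 of 8 (6 without the pool), Itgal (1.75) and F13a1 (1.56), and erythrocyte genes 1 of 6 (4 without the pool), Slc4a1 (1.97). Hydin, Itgal and Slc4a1 were lower in the astrocyte library of risperidone replicate 1, at -0.24, -0.57 and -0.88. The rest of the border macrophage and leukocyte list, 12 of 20 genes, was too low to be tested. Early response genes that dissociation is known to induce were called higher in 10 of 26 and lower in 0, against 9.45% and 12.7% of all genes. Their median was 0.41, against 0.09 over all genes. Nfkbia stood at 1.00, Klf4 at 0.89, Fos at 0.87 and Atf3 at 0.85, all higher in 6 of 6 pools.

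The medians of ribosomal protein and respiratory chain genes were highest in risperidone replicate 1, and both kept their sign when that pool was left out. Of 34 ribosomal protein genes 0 were called in edgeR (3 had an unadjusted p under 0.05). Their median was -0.38, but -0.04 without scaling factors, and it stood at -0.95 in batch 2 alone and 0.15 in batch 1 alone. In the single pools that median was -0.44 and -0.82 for clozapine, 1.11 and -0.84 for risperidone and -0.22 and -0.90 for vehicle, and without risperidone replicate 1 it was -0.63 with 22 genes called lower. Of 35 nuclear-encoded respiratory chain genes, 2 were called lower, Cox8a (-1.21) and Cox5b (-0.96), a smaller share than the 12.7% of all genes called lower. The median of this list was -0.30, but 0.04 without scaling factors and -0.50 with 12 called lower without that pool. In the single pools it was -0.09 and -0.60 for clozapine, 0.67 and -0.85 for risperidone and 0.08 and -0.98 for vehicle. Glycolysis gave 12 lower without risperidone replicate 1, against 5 with all pools. Lower calls over all genes also rose without that pool, from 2953 of 23239 tested to 4356 of 23366. Among 16 long noncoding RNAs of brain, 6 were called lower and 1 higher (median -0.47), against 12.7% and 9.45% of all genes. Pcsk2os1 (-1.43), Peg13 (-1.24), Rian (-0.98) and Snhg14 (-0.91) were lower in 6 of 6 pools, and counts without strand leave reads of their antisense partners in them. Of 12 transcripts that localise to myelin sheaths, 5 were called higher and 0 lower (median 0.50), with Pmp22 (0.95), Trf, Cryab (0.82) and Car2 (0.82) leading.

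With the summed olfactory receptor level as a covariate, a fit added after the data were seen, 1280 genes were called higher and 654 lower of 23239 tested. Without the covariate these were 2197 and 2953, so the calls of the lists are read against that general loss. The covariate was itself higher in the astrocyte library in every pool except risperidone replicate 1. A fit with it therefore cannot fully tell the covariate and the fraction apart. In that fit 19 of 20 channel and transporter genes and all 30 astrocyte identity genes were called higher, with medians of 1.88 and 1.85. Neuronal lists had fewer calls in that fit, with 8 of 20 pan-neuronal genes lower (median -0.80), 11 of 25 presynaptic (median -0.79), 2 of 23 postsynaptic (median -0.59) and 7 of 23 voltage-gated channel genes (median -0.64). Of 20 endothelial genes 1 was called higher (median 0.21), of 20 microglial genes 15 (median 1.51) and of 19 reactive astrocyte genes 3 (median 0.32). The medians of 4 lists changed sign in it, to 0.16 for glycolysis, 0.29 for the respiratory chain, 0.42 for ribosomal proteins, with 5 called higher, and -0.05 for border macrophage and leukocyte genes.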

How the data were processed

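Counts of reads per gene in all 18 libraries were deposited by the authors as a table per library. Per the file headers, featureCounts was run with multiple overlaps allowed, on paired reads counted singly, with no strand setting, so overlapping, antisense and near-identical genes can share reads; the version, 2.0.8, is in the same headers, the GRCm39 build and FastQC are per the submitters' processing notes, and no aligner is named in the sources used here. GENCODE names matched 52029 of 56953 gene identifiers, which held 96.2% of counts, and the 37 mitochondrial features held 0 counts, so no mitochondrial share could be given.

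The 6 astrocyte and 6 neuron libraries were fitted in R 4.3.3 with edgeR 4.0.16 (quasi-likelihood test, TMM scaling, filterByExpr by fraction), with pool as a block, and p-values were adjusted by Benjamini-Hochberg over 23239 genes. A gene was called at an adjusted p under 0.05, and it separated the fractions if its log2 CPM difference (prior count 2) also had the same sign in 6 of 6 pools. Microglia libraries were left out. The pairing comes from the series' design text, since both fractions came from the same pooled animals; deviations of paired libraries from their fraction mean correlated at -0.42 to 0.21. P-values measure the spread between pools. Interactions of fraction with drug and with batch kept the pool block.

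The members and gene lists were chosen with earlier results of these data known. Named genes were the capture antigens, the 15 largest differences in each direction among separating genes with a known symbol and a mean of at least 5 CPM, the 5 most abundant others in each direction with a difference of at least 1 in size, up to 4 called genes per list and up to 5 genes per interaction; any other gene was chosen after its values were seen, and some genes that met the rule are not reported here. Alternatives were fits without the block, DESeq2 1.42.0, limma 3.58.1 with voom, RLE scaling, total counts, no filter, a minimum difference, single batches and treatments, each pool left out, the oligodendrocyte lists left out, and 3 settings on olfactory receptor reads that were chosen after seeing the data. The scripts were tested on simulated data. Promoters are from RefSeq on GRCm38.p6, another build than that of the counts.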

Additional observations from a re-analysis of the deposited data

Results flagged for a closer look

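Values of single pools far from the other 5 were found for 3 of 31 list medians and 2 of 161 named genes, where chance marks about 1 in 20 such groups. The ribosomal protein median was 1.11 in risperidone replicate 1, against -0.90 to -0.22 in the other pools, and the ependymal and choroid median was -0.59 in the same pool, against 0.77 to 1.43. The oligodendrocyte precursor median was 1.35 in clozapine replicate 2, against 0.40 to 0.70 elsewhere. Enpp6, a gene of newly formed oligodendrocytes, was at -0.24 in clozapine replicate 1, against 0.74 to 1.28, and Ccdc153, a ciliary gene, at 4.12 in risperidone replicate 2, against 1.19 to 1.78. The value of Ccdc153 rests on few reads, with 0 to 0.879 CPM in neuron libraries.

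Of 161 named genes, 45 had a called interaction of fraction with batch (edgeR adjusted p from 0.0125 to 0.0499), against 10.1% of all genes tested. The named genes were mostly chosen for large or called differences, so the 2 shares are not alike in kind. The calls also hung on single pools, since 0 genes had this interaction called without vehicle replicate 1 or without risperidone replicate 2. The values below are the difference in batch 2 minus that in batch 1, on the log2 scale. The genes named for the smallest p of this interaction, so that their size restates their choice, stood at 4.38 for Fat2, 4.17 for Col2a1, 3.80 for Otog, 2.46 for Cdh23 and 2.35 for Myh6. Other positive values were 2.38 for Ttc21a, 2.20 for Cacna1s, 2.05 for Hydin, 1.90 for Atp1a4 and 1.79 for Spef2. Vascular and leukocyte genes were also positive, at 2.63 for Itgal, 2.45 for Vwf, 2.02 for Cdh5, 1.99 for F13a1, 1.66 for Kdr and 1.64 for Abcc9, as was Osmr at 1.93.

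The rest of the 45 genes had negative values. Release and vesicle genes stood at -2.18 for Rims1, -1.71 for Nrsn1, -1.70 for Cplx1, -1.63 for Cplx2 and -1.28 for Syn1. Calcium and calmodulin genes stood at -1.76 for Camk2n1, -1.68 for Hpcal4, -1.61 for Calb1 and -1.49 for Nrgn. Cytoskeletal genes stood at -1.80 for Map2, -1.52 for Nefl, -1.50 for Map1b and -1.25 for Ina, and postsynaptic genes at -1.43 for Shank2 and -1.40 for Cnksr2. Channel and receptor genes stood at -1.64 for Kcnab2, -0.94 for Gabra3 and -0.93 for Scn2b. The others were Trnp1 at -1.67, Fam81a at -1.63, Tbr1 at -1.13, Gad2 at -1.10, Peg13 at -1.22 and Rian at -1.03. Metabolic genes were also negative, at -1.53 for Acaa2, -1.39 for Cox8a, -1.28 for Eno2 and -1.18 for Cox5b.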

How the results depend on the processing

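The medians of the 31 lists moved by less than the spread between pools in 31 of 31 lists under each pool left out, both fits without the replicate block, DESeq2, voom and RLE scaling, and they moved further in 8 lists with total counts, 7 with the olfactory receptor covariate, 5 in batch 2 alone, 4 in vehicle pools alone and 3 each in batch 1 and clozapine pools alone. Of the 5150 genes called (2197 higher, 2953 lower, 4111 separating), leaving out 1 pool gave 2653 to 9259 calls, 1008 to 4903 higher, 1645 to 4356 lower and 2541 to 7808 separating. Without the replicate block, 6055 genes were called with fraction alone and 6371 with treatment and batch added, of which 4654 and 4972 were among the 5150. DESeq2 called 8259 genes, 4615 of them higher. Total counts gave 3574 higher and 1916 lower. A minimum absolute difference of 1 left 2673 genes, 1418 higher and 1255 lower, with 2180 separating. Batch 1 alone gave 1361 (840 higher, 521 lower, 1360 separating) and batch 2 alone 15441 (9093, 6348 and 15202). Clozapine pools alone gave 5485 calls, vehicle pools alone 353 (108 higher, 245 lower, 352 separating) and risperidone pools alone 2 (2 higher, 0 lower, 2 separating), each on 1 residual degree of freedom. The olfactory receptor covariate gave 1934 (1280 higher, 654 lower, 1375 separating), of which 1395 were among the 5150. List members called, 358 in all pools, came to 199 in batch 1, 32 in vehicle pools, 0 in risperidone pools and 218 with that covariate. The interaction with both drugs was called for 2 genes by DESeq2's likelihood ratio test and for 0 to 57 with 1 pool left out, clozapine for 0 to 4 and risperidone for 0 to 34. The batch interaction, 2338 genes, came to 1477 without the replicate block and 0 to 3871 with 1 pool left out. Signs turned for Vwf with the covariate (-0.08), Thbs2 in risperidone pools alone (-0.13) and Fcer1g in vehicle pools alone (-0.01). The causes were not tested. Depth limits genes of few CPM most, and 2 pools per treatment limit the drug interactions.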
